A study of Sus scrofa with 12 samples.

Results

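Left ventricular septum was compared with left ventricular free wall in sham-operated pigs, so that the regional difference could be read without pacing. The 6 arrays that the labels give as septum or free wall of control pigs were used, 3 of each region, out of 12 arrays in the series. They were taken by label alone, and no measured value entered the choice. The groups were sham septum and sham free wall, set beside paced septum and paced free wall. All were left ventricle of 13-month-old female pigs, taken 6 months after surgery at the level of the papillary muscles. Sham pigs, called CTL in the labels, had no atrioventricular block. Paced pigs, called EXP, had atrioventricular block made with an ablation catheter and a pacemaker in VDD mode, in which the ventricle is paced after a sensed atrial beat. As worded in the labels, a ventricular lead lay over the right ventricular septum and an atrial lead over the right atrial appendage in all pigs, the sham pigs included. The series enrolled 12 pigs, 6 per treatment, and the labels neither tie an array to an animal nor say whether RNA was pooled. The p-values below therefore measure the spread between these arrays.

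The septum is shared by the left and right ventricle and carries the bundle branches of the conduction system on its surfaces, while the free wall belongs to the left ventricle alone. In the embryo the working muscle of the ventricles is patterned by transcription factors such as HAND1, HAND2, TBX5 and the Iroquois genes. In the adult heart, regional differences are best known for potassium channels that repolarise the cell and for stretch-responsive genes such as the natriuretic peptides.

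Signals are on the log2 scale, so a difference of 1 is 2-fold. Array medians ran from 4.31 to 4.45 across the series. Paced free wall array 2 stood apart from the rest, at -45.27 on the first principal component of all arrays and with a limma array weight of 0.24. It entered the comparison of the sham regions through the shared estimate of the spread, the filter on dim probe sets and the choice of each gene's probe set. Markers of ventricular muscle were bright. MYH7, the slow myosin heavy chain, read 12.58, 12.57 and 12.59 in septum arrays 1, 2 and 3, against 12.52, 12.52 and 12.47 in free wall arrays 1, 2 and 3. MYL2, the ventricular regulatory light chain, read 12.47, 12.53 and 12.51 in septum and 12.45, 12.42 and 12.37 in free wall. Of the 16 ventricular cardiomyocyte markers listed, 10 were matched on the array and the same 10 passed the filter on dim probe sets. In tissue RNA, fewer cells of a type and less RNA per cell cannot be told apart.

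No gene separated the 2 regions of sham pigs at the threshold used. Of 20668 probe sets tested with limma, 0 reached a Benjamini-Hochberg adjusted p under 0.05 (0%), and the smallest adjusted p was 0.133. The unadjusted p was under 0.05 in 758 probe sets (3.67%), of which 438 were higher and 320 lower in septum than in free wall. That count was 505 without sham septum array 3 and 1208 without paced free wall array 2. With each array centred on its median that split was 330 higher and 369 lower, so the excess of higher signals in septum depended on the scaling. Same-numbered septum and free wall arrays deviated together in sham pigs, and the fit with the array number as a block over the 6 sham arrays also called 0 probe sets (0%). Its smallest adjusted p was 0.479. At an unadjusted p under 0.05 it held 2099 probe sets (10.2%), 1190 of them higher in septum.

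Regional differences were small beside the error of the fit without a block. Among 10007 genes, each read by its brightest tested probe set, the median size of the difference between septum and free wall was 0.11, and the 99th percentile of that size was 0.50. The median gene differed by 0.01, with 5147 genes above 0 and 4789 below. With each array centred on its median every difference fell by the same amount, leaving 4326 genes above 0 and 5600 below. Where counts of lists with centred arrays are given, they stand beside these. For 9727 genes (97.2%) the 95% interval of the difference lay within 2-fold in either direction. The standard error (SE) of the difference had a median of 0.16 over probe sets in the fit without a block, which gave the SEs below. With the array number as a block over the 6 sham arrays, the SE of some genes was much smaller. It was 0.11 against 0.49 for COL3A1 and 0.13 against 0.34 for KCNA4, but 0.18 against 0.15 for KLHL26. All 3 septum arrays lay above all 3 free wall arrays in 678 genes (6.78%) and below them in 588 (5.88%), counts that became 469 and 779 with each array centred on its median. Among genes at an unadjusted p under 0.05, 183 (1.83%) were higher and 129 (1.29%) lower in septum, and with the array number as a block 506 (5.06%) were higher and 408 (4.08%) lower.

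Array number held more of the variation than region, on 2 degrees of freedom against 1. Over the probe sets tested, region held 21.3% of the sum of squares of the 6 sham arrays, array number 50.1% and the remainder 28.6%. Per degree of freedom the mean squares were 0.0620 for region, 0.0728 for array number and 0.0415 for the remainder. On the first component of the sham arrays, which held 29.8% of the variance, septum array 1 lay at 23.38 and free wall array 1 at 23.00, and the other 4 arrays lay between -20.36 and -4.63. The second component, with 25.9%, set septum array 3 at 33.27 apart from the others, which lay between -18.70 and 0.74. Whether arrays numbered 1 come from 1 animal or from 1 processing run cannot be told apart from the labels.

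**Figure D1:**
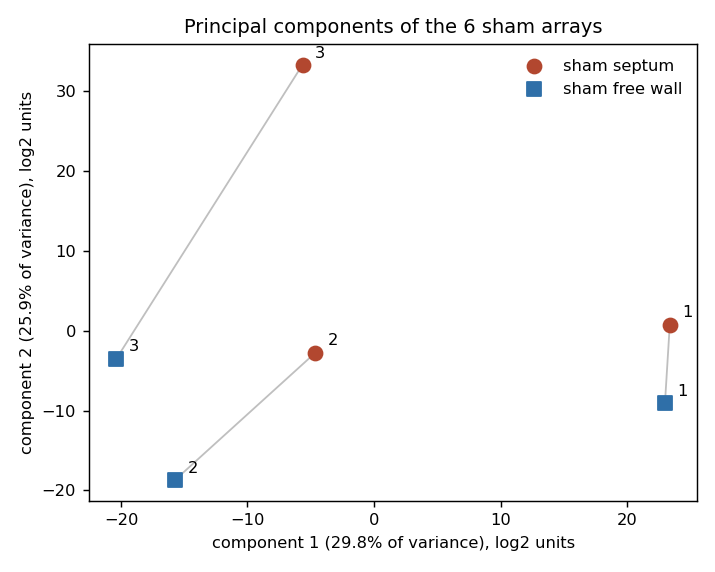
First and second principal components of the 6 sham arrays in log2 units, with septum as circles, free wall as squares, and grey lines joining arrays of the same number. Both arrays numbered 1 lie near 23 on the first component, and septum array 3 lies at 33.27 on the second.

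Among named genes, 3 differed at least 2-fold on average between the regions, and they are singled out here after their values were seen. PRLR, the prolactin receptor, read 6.64, 6.63 and 6.53 in septum arrays 1, 2 and 3, against 6.26, 5.32 and 4.19 in free wall arrays 1, 2 and 3. The septum arrays lay close together and above every free wall array, while the free wall arrays spread over more than 2 units. The mean difference was 1.34 (SE 0.48, 95% interval 0.29 to 2.40), with an adjusted p of 0.997 in limma. Left without free wall array 3 it was 0.81, and without free wall array 1 it was 1.85. In paced pigs, whose arrays are separate, PRLR read 7.26, 7.02 and 7.51 in septum and 3.93, 5.61 and 5.39 in free wall, again without overlap.

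XDH encodes xanthine dehydrogenase, the purine-degrading enzyme that also exists as xanthine oxidase. Its signal was 8.42, 7.70 and 6.12 in septum arrays 1, 2 and 3, against 7.77, 5.51 and 3.48 in free wall arrays 1, 2 and 3. In each same-numbered pair the septum array was the higher, by 0.65, 2.19 and 2.64, yet the groups overlapped because array 1 was high and array 3 low in both regions. The mean difference was 1.83 (SE 0.89), with an unadjusted p of 0.0626 without the block and 0.00385 with it, and an adjusted p of 0.997 and 0.479 in limma. Without free wall array 3 it stood at 0.77 and without free wall array 1 at 2.92. In paced pigs the 2 regions did not overlap, and the difference was 3.47.

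LOC100737875, a locus with no described role in the sources used here, read 4.44, 4.29 and 4.86 in septum, against 5.78, 5.28 and 5.66 in free wall. The groups did not overlap, and the difference was -1.04 (SE 0.17, unadjusted p 6.36e-05, limma adjusted p 0.657). In paced pigs the difference was -1.13, again with no overlap. Probe set 15347989, to which no gene symbol is paired, had the smallest p of all: it read 2.72, 2.91 and 2.95 in septum and 3.97, 3.64 and 4.11 in free wall, a difference of -1.05 (SE 0.14, limma adjusted p 0.133). Its septum signals lie near the lower quartile of these arrays, 2.97 to 3.05, where signal above background was not tested. The paced difference of this probe set was -0.57, without overlap. Over all probe sets, named or not, 29 were at least 2-fold higher and 15 at least 2-fold lower in septum.

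**Figure D2:**
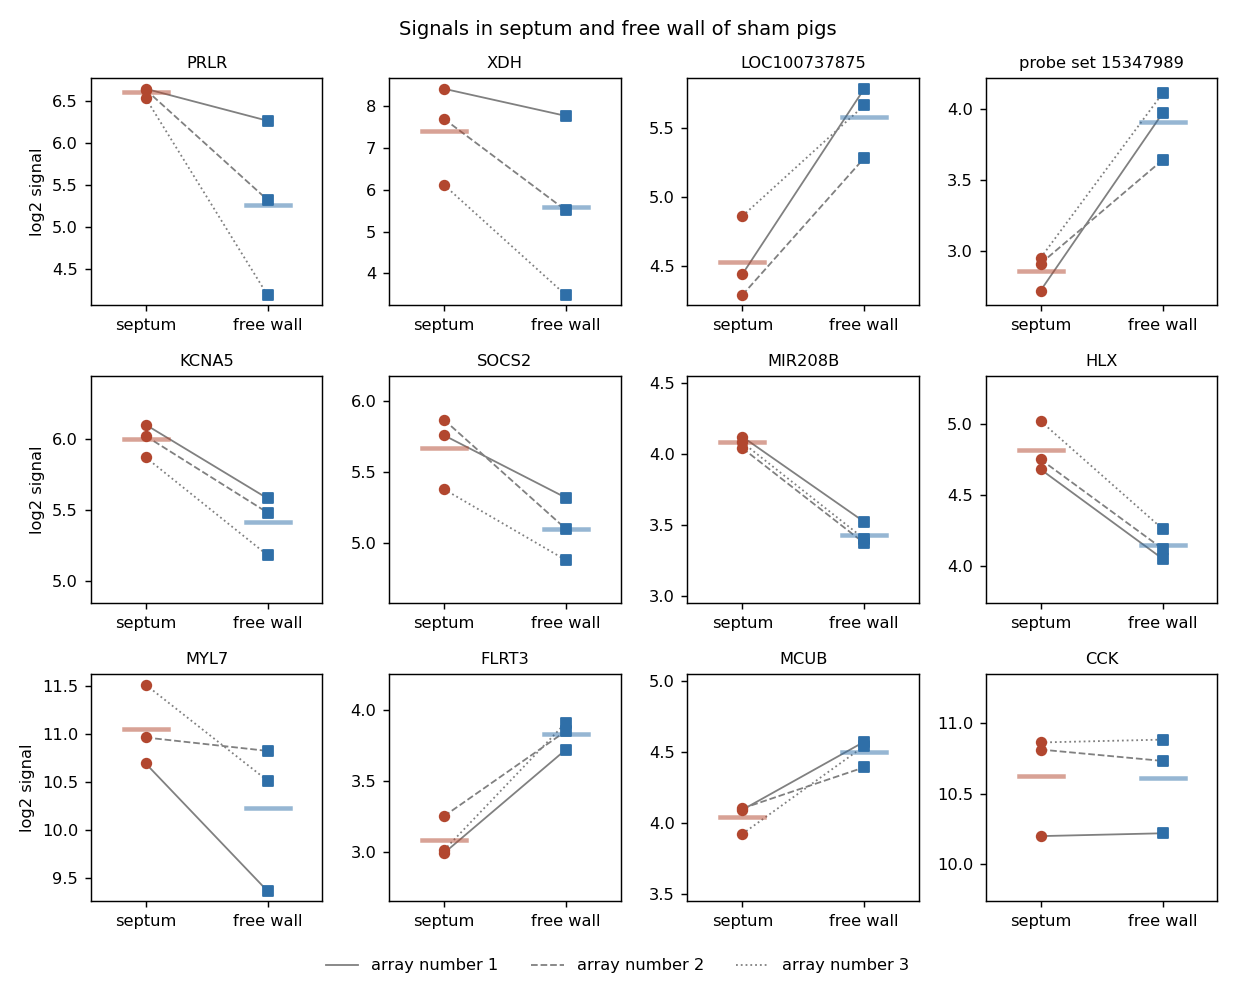
Log2 signals of 12 genes or probe sets in sham septum (circles, left) and sham free wall (squares, right), with lines joining arrays of the same number and thick bars at the group means; each panel has its own range of log2 units. PRLR and XDH spread widely in free wall, MIR208B, KCNA5 and HLX keep the regions apart in all 3 pairs, and CCK follows the array number.

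Below that size, genes were named where the unadjusted p was under 0.01 and the groups did not overlap, which makes all 3 pairs agree. As deposited, 30 of the 10007 genes met this with septum above and 7 with septum below, uncharacterised loci left out. With each array centred on its median the counts were 13 and 10. None passed the adjusted threshold, and each had an adjusted p of 0.997 in limma. The 12 with the largest difference above 0 and the 7 below 0 are described next, first those with septum above.

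MIR208B, a microRNA that in mouse and human lies in an intron of the slow myosin gene MYH7, read 4.12, 4.04 and 4.08 in septum arrays 1, 2 and 3, against 3.52, 3.37 and 3.40 in free wall arrays 1, 2 and 3. The arrays of each region lay close together, and the difference was 0.65 (SE 0.19), with 0.56 in paced pigs. HLX, a homeobox transcription factor, read 4.68, 4.75 and 5.02 in septum and 4.05, 4.12 and 4.26 in free wall, a difference of 0.67 (SE 0.18) and in paced pigs of 0.21. SOCS2, a suppressor of cytokine signalling induced by growth hormone and prolactin receptors, read 5.76, 5.87 and 5.38 in septum and 5.32, 5.10 and 4.88 in free wall. It differed by 0.57 (SE 0.17) in sham pigs and by 1.22 in paced pigs, with no overlap in either. PDIA2, a protein disulfide isomerase best known from pancreas, read 5.99, 5.86 and 5.71 in septum and 5.32, 5.64 and 5.12 in free wall, a difference of 0.49 in sham and 0.83 in paced pigs. Its other probe set differed by 0.12 with overlap, so the 2 probe sets disagree.

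Several of the remaining genes on that side were dim. PRSS27, a serine protease, had the largest difference of the 12, 0.83 (SE 0.22), from 3.62, 3.75 and 3.35 in septum and 3.21, 2.38 and 2.63 in free wall. MIR486-1, a microRNA of muscle and red cells, read 4.13, 4.43 and 5.04 in septum and 3.83, 3.68 and 3.79 in free wall, a difference of 0.77 that stood at 0.51 without septum array 3. In paced pigs its difference was -0.14. The others were GALNT9, a glycosyltransferase, at 0.60, TMED8, of a family that moves cargo through the secretory pathway, at 0.56, and MIOX, which oxidises inositol, at 0.52. KCNH6, a potassium channel of the ERG type, stood at 0.51, GINS3, of the DNA replication machinery, at 0.49, and KLHL26, a kelch-like protein, at 0.47. Values for GALNT9 and KLHL26 were 0.37 and 0.30 without free wall array 2, and for GINS3 0.32 without free wall array 3. The other probe set of KLHL26 differed by 0.00.

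On the side with septum below, FLRT3, a leucine-rich membrane protein that guides axons and joins cells, read 2.99, 3.25 and 3.01 in septum arrays 1, 2 and 3, against 3.72, 3.85 and 3.91 in free wall arrays 1, 2 and 3. The groups were well apart, at a difference of -0.74 (SE 0.14), though the septum signals were near the dim end. MCUB, the inhibitory subunit of the mitochondrial calcium uniporter, read 4.09, 4.10 and 3.92 in septum and 4.57, 4.39 and 4.54 in free wall, a difference of -0.46 (SE 0.12). HMGA1, a chromatin protein, read 5.25, 5.09 and 5.22 in septum and 5.54, 5.63 and 5.53 in free wall, at -0.38. KIF3A, a motor protein of cilia, read 5.21, 5.19 and 5.25 in septum and 5.60, 5.51 and 5.90 in free wall, at -0.45. Cell division genes NUF2, of the kinetochore, and CENPJ, of the centriole, stood at -0.62 and -0.47, and a further probe set of CENPJ at -0.24. CXCL11, a chemokine induced by interferon, stood at -0.50 (SE 0.14), or -0.35 without free wall array 1. Its signals were dim, at 2.78, 3.05 and 2.92 in septum and 3.71, 3.16 and 3.38 in free wall. NUF2 was also dim in septum, at 3.04, 3.17 and 2.99.

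The paced arrays read the same regions on other arrays, but not independently of the naming. They entered the shared spread behind the p of the rule, which favours genes whose paced arrays lie close together. Of the 12 genes named with septum above in sham pigs, 10 were above 0 in paced pigs too. SOCS2, TMED8 and PDIA2 also had paced groups that did not overlap. Of all 30 genes that met the rule with septum above, 24 were above 0 in paced pigs, and 12 had paced groups apart with septum above. For comparison, 62.2% of all genes above 0 in sham pigs were above 0 in paced pigs, and 11.1% of them had paced groups apart with septum above (7.24% of all genes). Of the 7 genes with septum below, 4 were below 0 in paced pigs, against 54.6% of all genes below 0 in sham pigs, and in 0 of them were the paced groups apart with septum below. Of all genes below 0 in sham pigs 4.80% had such paced groups (3.22% of all genes). Differences in paced pigs were 0.16 for FLRT3, -0.01 for MCUB, 0.09 for HMGA1 and 0.00 for CXCL11. The difference between the sham and the paced regional effect was tested in the same limma fit, and 0 of 20668 probe sets (0%) reached an adjusted p under 0.05. Its smallest adjusted p was 0.999, and 569 probe sets had an unadjusted p under 0.05. FLRT3 had the unadjusted p 0.000564 in that test, but it was named for a small p in sham pigs, whose difference enters the same test.

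**Figure D3:**
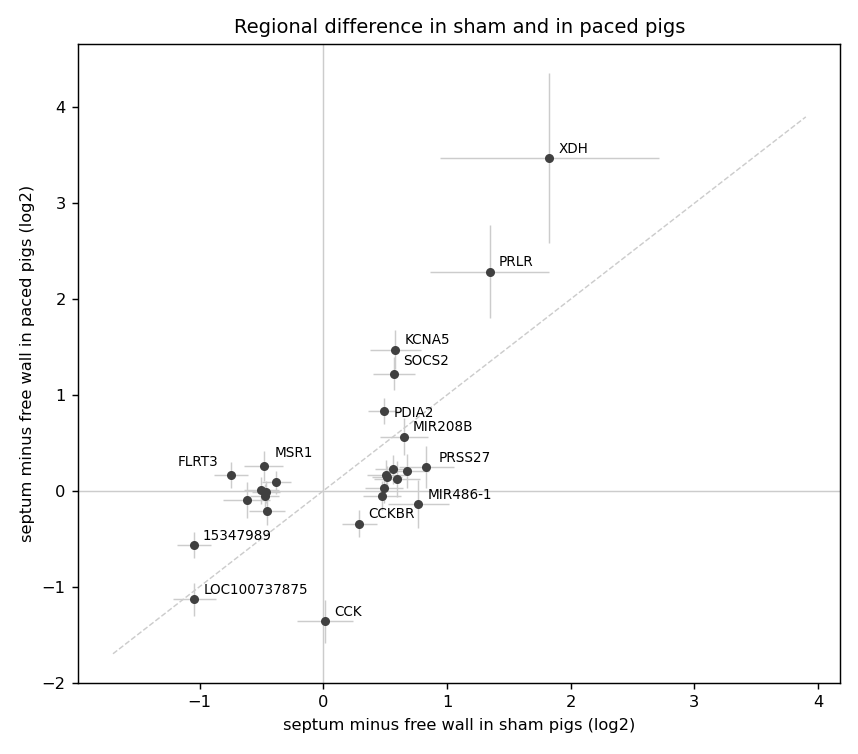
Septum minus free wall in log2 units in sham pigs (horizontal axis) against the same in paced pigs (vertical axis) for the genes named by the rule, the 4 features singled out, and KCNA5, CCK, CCKBR and MSR1; bars are 1 SE and the dashed line marks equal differences. PRLR and XDH lie above 0 on both axes, LOC100737875 lies at -1.04 and -1.13, and CCK lies at 0.01 in sham and -1.36 in paced pigs.

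Transcription factors of the ventricle did not set the regions apart. Of 26 tested genes on this list 14 lay above 0 and 12 below, with a median of 0.01, against 5147 above, 4789 below and a median of 0.01 over all genes, and 0 passed. HAND2, which patterns the ventricles of the embryo, read 7.07, 6.73 and 6.84 in septum arrays 1, 2 and 3 and 6.68, 6.72 and 6.56 in free wall arrays 1, 2 and 3. It was the 1 member whose groups did not overlap, at 0.23 (SE 0.12), with 0.37 in paced pigs, also without overlap. TBX5, whose border in the embryo marks where the septum forms, read 7.61, 7.46 and 7.52 in septum and 7.52, 7.45 and 7.57 in free wall, a difference of 0.02 with a 95% interval of -0.22 to 0.26. TBX20 differed by 0.06, IRX3, which is known from the conduction system, by 0.11, and IRX4, a ventricular Iroquois factor, by 0.19. IRX6 had the largest value at 0.58 (SE 0.35), and GATA6, a cardiac zinc finger factor, stood at 0.39 (SE 0.16). HAND1 was on the array but too dim for the filter, and MYH6 was not matched to a probe set.

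Conduction system genes gave no regional reading either. Of 13 tested, 6 lay above 0 and 7 below, with a median of -0.02. HCN4, the pacemaker channel, read 4.34, 4.42 and 4.90 in septum and 4.46, 4.44 and 4.67 in free wall, a difference of 0.03 (SE 0.19). GJA5, the connexin of fast-conducting cells, read 4.77, 4.51 and 5.03 in septum and 3.95, 4.49 and 5.13 in free wall, at 0.25 (SE 0.31) and -0.04 without free wall array 1. Of the separate markers of Purkinje cells 7 of 12 were tested, with 4 above 0 and 3 below. CACNA2D2, a calcium channel subunit, was the 1 of them without overlap, at 0.37 (SE 0.19).

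Potassium channel genes lay mostly above 0. Of 17 tested, 14 were above 0 and 3 below with a median of 0.11, 3 had septum above free wall without overlap, against 6.78% of all genes, and 0 passed. With each array centred on its median 14 were again above 0, with a median of 0.08. The median as deposited was 0.06 without free wall array 1 and 0.22 without free wall array 2. In paced pigs 10 of the 17 lay above 0 and 7 below, with a median of 0.03. KCNA5, which encodes the ultrarapid delayed rectifier Kv1.5, read 6.10, 6.02 and 5.87 in septum arrays 1, 2 and 3, against 5.58, 5.48 and 5.18 in free wall arrays 1, 2 and 3. Every septum array was above every free wall array. The difference was 0.58 (SE 0.20, 95% interval 0.14 to 1.03), with an unadjusted p of 0.0146 without the block and 0.00120 with it, and a limma adjusted p of 0.997. In paced pigs KCNA5 differed by 1.47, and the test of sham against paced gave an unadjusted p of 0.00984 and an adjusted p of 0.999.

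KCNA4, the Kv1.4 channel of the slow transient outward current, read 5.53, 5.14 and 5.73 in septum and 5.15, 4.47 and 4.81 in free wall. Each pair had the septum higher, though the groups overlapped, and the difference was 0.66 (SE 0.34). KCNH2, the rapid delayed rectifier hERG, read 5.11, 4.91 and 4.99 in septum and 4.73, 4.80 and 4.71 in free wall, at 0.26 (SE 0.11), with 0.02 in paced pigs. KCNT1, a sodium-activated channel, stood at 0.24. The genes of the fast transient outward current, best known for its gradient across the ventricular wall, showed no such gap. KCND3 differed by 0.08 (95% interval -0.25 to 0.40) and its partner KCNIP2 by 0.08 (95% interval -0.16 to 0.32).

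Genes of gap junctions and the intercalated disc lay above 0 in 13 of 14 cases as deposited, and none was apart by region. With each array centred on its median 9 of them lay above 0, beside 4326 of all 10007 genes. Paced pigs had 7 of the 14 above 0 and 7 below. GJA1, the main ventricular connexin, read 10.69, 10.36 and 10.46 in septum and 10.81, 10.36 and 10.22 in free wall, a difference of 0.04 (SE 0.16). XIRP1, of the disc, stood at 0.48 (SE 0.37) and JUP, plakoglobin, at 0.26 (SE 0.13). The XIRP1 difference was 0.17 without free wall array 3 and 0.90 without free wall array 1. Calcium handling genes were split 8 above and 5 below 0 as deposited, with a median of 0.01. The split was 5 above and 7 below with each array centred on its median. CACNA1C, the pore of the L-type calcium channel, read 8.26, 8.15 and 8.23 in septum and 8.04, 7.79 and 7.91 in free wall. Its groups did not overlap, at 0.30 (SE 0.12), and the paced difference was 0.29, also without overlap. ASPH, which gives rise to junctin, stood at -0.33 (SE 0.16).

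Sarcomere and Z-disc genes lay above 0 in 18 of 23 cases, with a median of 0.09 as deposited and 0.06 with each array centred on its median. In 4 of them the septum arrays were above the free wall arrays without overlap, in 0 below, and 0 passed; over all genes the shares were 6.78% above and 5.88% below. In paced pigs 19 lay above 0 and 4 below, with a median of 0.12. MYOM2, an M-band protein, read 11.18, 10.81 and 10.74 in septum arrays 1, 2 and 3, against 10.75, 10.32 and 10.25 in free wall arrays 1, 2 and 3. Septum array 3 lay just under free wall array 1, and the difference was 0.47 (SE 0.16) in sham and 0.51 in paced pigs. MYBPC3, myosin-binding protein C, read 10.62, 10.70 and 10.77 in septum and 10.43, 10.41 and 10.44 in free wall, at 0.27 (SE 0.12) and without overlap, with 0.28 in paced pigs. CRYAB, a chaperone of the Z-disc, read 10.59, 10.13 and 10.29 in septum and 10.11, 10.04 and 10.06 in free wall, at 0.27 (SE 0.14).

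MYL7, the light chain of atrial muscle, read 10.69, 10.96 and 11.51 in septum and 9.36, 10.82 and 10.51 in free wall. Free wall array 1 was far under the others, and the difference was 0.82 (SE 0.35, unadjusted p 0.0358), or 0.39 without that array. MYL4, the atrial essential light chain, read 3.60, 3.75 and 4.77 in septum and 3.99, 4.20 and 4.79 in free wall, at -0.29 (SE 0.33). Over the atrial cardiomyocyte markers 6 lay above 0 and 6 below, with a median of -0.01. Markers of ventricular cardiomyocytes lay above 0 in 9 of 10 cases, with a median of 0.07 as deposited. With each array centred on its median 6 of them lay above 0, beside 4326 of all 10007 genes.

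The natriuretic peptide genes NPPA and NPPB varied more within a region than between regions. NPPA, atrial natriuretic peptide, read 6.08, 7.47 and 8.12 in septum arrays 1, 2 and 3, against 7.09, 4.75 and 8.55 in free wall arrays 1, 2 and 3. The range within each region was over 2 units, and the difference was 0.43 with an SE of 0.84. NPPB, B-type natriuretic peptide, read 4.58, 3.34 and 4.68 in septum and 3.89, 4.02 and 3.57 in free wall, at 0.37 (SE 0.32). ACTA1, skeletal actin, stood at 0.13 (SE 0.19). Of 14 genes on this list 11 lay above 0 with a median of 0.08. CITED4, a transcriptional co-activator tied to exercise growth in mouse heart, stood at 0.38 (SE 0.14), with 0.07 in paced pigs.

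Energy metabolism lists had medians near 0 except glycolysis, at 0.09 as deposited and 0.06 with each array centred on its median. Fatty acid genes lay above 0 in 13 of 17 cases with a median of 0.04. Glycolysis genes did so in 12 of 18 with 0.09, and respiratory chain genes in 10 of 13 with 0.02. With each array centred on its median the counts were 10, 10 and 5, beside 4326 of all 10007 genes. The respiratory chain spanned -0.15 to 0.08, the narrowest range of these 3 lists. PYGM, muscle glycogen phosphorylase, read 9.71, 9.82 and 9.95 in septum and 9.52, 9.58 and 9.63 in free wall. Its groups did not overlap in sham pigs, at 0.25 (SE 0.12), nor in paced pigs, at 0.41. PDK4, which blocks glucose oxidation, read 10.10, 10.83 and 10.07 in septum and 9.73, 10.68 and 9.34 in free wall, at 0.42 (SE 0.37). The PDK4 difference was 0.13 without free wall array 3 and 0.80 without free wall array 2.

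Collagen and matrix genes were divided, with 13 of 30 above 0 and 17 below and a median of -0.06. Centred arrays gave 11 above and 19 below, with a median of -0.10. COL4A1, a basement membrane collagen, read 6.52, 6.54 and 6.44 in septum arrays 1, 2 and 3, against 6.25, 6.20 and 6.21 in free wall arrays 1, 2 and 3. Its groups did not overlap in sham pigs, at 0.28 (SE 0.09, unadjusted p 0.00977), nor in paced pigs, at 0.26. COL5A1, a fibrillar collagen, stood at -0.35 (SE 0.18), and LOX, which crosslinks collagen, at -0.50 (SE 0.26), or -0.22 without septum array 3.

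The main fibrillar collagens followed the array number. COL1A1 read 6.51, 7.26 and 7.01 in septum and 6.04, 7.10 and 6.84 in free wall, a difference of 0.27 (SE 0.29). COL3A1 read 6.02, 8.0 and 7.26 in septum and 6.03, 7.87 and 7.52 in free wall, at -0.05 (SE 0.49). Array 1 was the lowest in both regions for both genes. POSTN, periostin of activated fibroblasts, did the same, with 5.58, 7.52 and 6.30 in septum and 5.74, 7.85 and 7.37 in free wall, at -0.52 (SE 0.58).

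Fibroblast markers lay below 0 in 9 of 13 cases, with the lowest median of the 40 lists, -0.28, and 2 members had septum below free wall without overlap, against 5.88% of all genes. Centring each array on its median put 12 of them below 0, beside 5600 of all 10007 genes. Of the markers, 13 of 15 were on the array. PDGFRL, a receptor-like protein, read 4.85, 5.10 and 4.70 in septum and 5.24, 5.28 and 5.31 in free wall, at -0.39 (SE 0.17, limma adjusted p 0.997). DCN, decorin, read 10.55, 10.94 and 10.35 in septum and 10.61, 11.15 and 11.02 in free wall, at -0.31 (SE 0.18), and at -0.31 in paced pigs. The mean of the members, centred on the mean of each gene, stood at -0.30, 0.22 and -0.34 in septum arrays and -0.29, 0.24 and 0.12 in free wall arrays, with the regions furthest apart at array number 3. The median was -0.09 without septum array 3, -0.10 without free wall array 2 and -0.41 without septum array 2. In paced pigs 9 of the 13 were below 0 as well, with a median of -0.18. The part that fibroblast content plays in the matrix genes above was not tested.

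**Figure D4:**
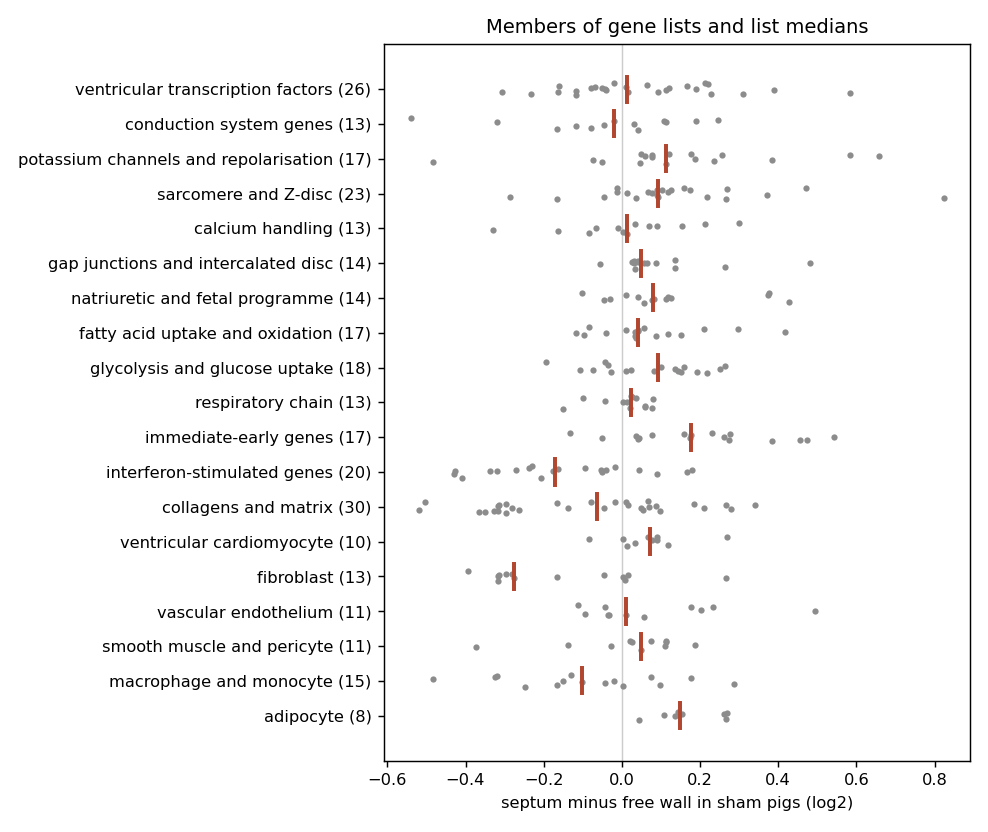
Septum minus free wall in sham pigs in log2 units for each tested member (grey points, spread in height only to part them) of 19 gene lists, with red bars at the list medians and the number of members in brackets. Medians run from -0.28 for fibroblast markers to 0.18 for immediate-early genes, and single members of most lists lie on both sides of 0.

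Interferon-stimulated genes lay below 0 in 16 of 20 cases, under every scaling tried, with a median of -0.17. With the array number as a block 6 had an unadjusted p under 0.05, all lower in septum, against 4.08% of all genes lower with the block. Without the block 0 did, against 1.29% of all genes. IFIT2, an antiviral RNA-binding protein, read 4.75, 4.63 and 5.18 in septum arrays 1, 2 and 3, against 5.23, 5.20 and 5.36 in free wall arrays 1, 2 and 3, the 1 member without overlap, at -0.41 (SE 0.22). IFIH1, a sensor of viral RNA, read 4.57, 5.71 and 5.41 in septum and 5.03, 5.76 and 6.18 in free wall, at -0.43 (SE 0.36). The list mean stood at -0.37, 0.25 and 0.22 in septum and -0.34, 0.39 and 0.49 in free wall, so the array numbered 1 was low in both regions. The median was 0.05 without septum array 1, -0.43 without free wall array 1, -0.04 without free wall array 2 and -0.02 without free wall array 3. These fits leave 1 array without its same-numbered partner. Without both arrays numbered 1, an alternative added after the data were seen, the median was -0.27. In paced pigs 14 of the 20 lay above 0, with a median of 0.06.

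Macrophage markers lay below 0 in 10 of 15 cases, with a median of -0.10, and at 0.01 without septum array 3. Centred arrays gave 11 below 0, beside 5600 of all 10007 genes. MSR1, a scavenger receptor, read 4.12, 3.77 and 3.40 in septum and 4.19, 4.34 and 4.21 in free wall, without overlap, at -0.48 (SE 0.16), or -0.30 without septum array 3. C1QC, a complement subunit, stood at -0.32 (SE 0.20), while ITGAM, an integrin of myeloid cells, stood at 0.29 (SE 0.22) with septum above free wall. The list mean was 0.21, 0.00 and -0.16 in septum arrays and 0.10, 0.19 and 0.03 in free wall arrays. In paced pigs 12 of the 15 lay above 0, with a median of 0.11.

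Immediate-early genes, which respond within minutes to stretch, handling or injury, lay above 0 in 15 of 17 cases with a median of 0.18, the same count under every scaling tried. Their mean was -0.06, -0.10 and 0.42 in septum arrays 1, 2 and 3, against -0.11, -0.11 and -0.11 in free wall arrays 1, 2 and 3, so septum array 3 stood alone. Without it the median was 0.07. EGR1, a zinc finger factor, read 5.33, 5.76 and 6.08 in septum and 4.82, 5.52 and 5.46 in free wall, at 0.46 (SE 0.24). Of 20 chaperone and stress genes, 14 lay above 0 as deposited, with a median of 0.02. With each array centred on its median 8 of them lay above 0, beside 4326 of all 10007 genes. In 4 the septum arrays were above the free wall arrays without overlap, the small heat shock proteins HSPB1, HSPB6 and HSPB8 among them, against 6.78% of all genes. HSPB1 read 8.76, 8.81 and 9.06 in septum and 7.86, 8.56 and 8.75 in free wall, at 0.49 (SE 0.22), or 0.22 without free wall array 1. HSPB6 read 9.47, 9.22 and 9.47 in septum and 8.77, 9.07 and 8.92 in free wall, at 0.47 (SE 0.25). HSPB8 stood at 0.24 (SE 0.13), while HSPH1, a large chaperone, stood at -0.22.

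**Figure D5:**
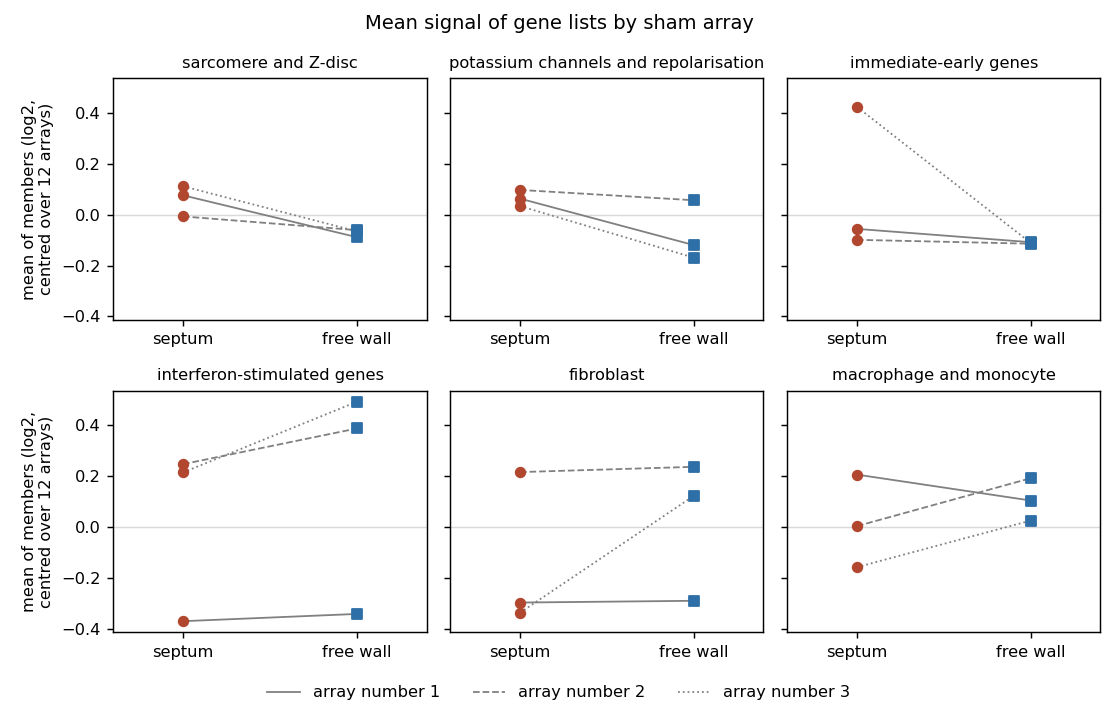
Mean log2 signal of the members of 6 gene lists on each sham array, each gene centred on its mean over the 12 arrays, with septum left, free wall right and lines joining arrays of the same number. Septum array 3 stands alone for immediate-early genes at 0.42, and the arrays numbered 1 are the lowest of their region for interferon-stimulated genes.

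Among vessel cells, endothelial markers were split 6 above and 5 below 0 with a median of 0.01. Paced pigs had 10 of the 11 above 0, with a median of 0.18. CLDN5, the tight junction protein of endothelium, read 4.50, 4.98 and 4.62 in septum and 3.74, 4.42 and 4.46 in free wall, without overlap, at 0.49 (SE 0.19), or 0.26 without free wall array 1. EGFL7, secreted by endothelium, stood at 0.23 (SE 0.14), also without overlap. Smooth muscle and pericyte markers lay above 0 in 8 of 11 cases with a median of 0.05, and in 6 with each array centred on its median. Adipocyte markers lay above 0 in 8 of 8 cases under every scaling tried, with a median of 0.15, and 0 passed. Their largest values were those of RETN, resistin, at 0.27 (SE 0.17), and PNPLA2, the triglyceride lipase of fat and muscle, at 0.27 (SE 0.24). In paced pigs 3 of these 8 were above 0.

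Cholecystokinin, a peptide hormone also made by heart muscle, was even in sham pigs. CCK read 10.20, 10.81 and 10.86 in septum arrays 1, 2 and 3, against 10.22, 10.73 and 10.88 in free wall arrays 1, 2 and 3. Same-numbered arrays lay close together and arrays numbered 1 were low in both regions, and the difference was 0.01 (95% interval -0.47 to 0.50). In paced pigs the difference was -1.36 without overlap, and the test of sham against paced gave an unadjusted p of 0.000999 and a limma adjusted p of 0.999. Its receptor CCKBR read 3.36, 3.27 and 3.38 in septum and 2.88, 3.19 and 3.07 in free wall, at 0.29 (SE 0.14), near the dim end of the arrays.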

How the data were processed

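Total RNA of left ventricle was extracted with Trizol and labelled with biotin, per the labels' protocols. The deposited values are log2 signals, and the submitters' processing notes name Affymetrix Expression Console 1.4 and RMA, which corrects background, normalises quantiles and summarises each probe set. The table held 27558 probe sets on 12 arrays. The array's annotation build is not given in the sources used here, so no coordinates or sequences are given. A platform table listed 1 gene symbol for 13323 probe sets, several for 357 and none for 13878. Only probe sets with 1 symbol were named, and 7 symbols were updated through RefSeq. Of the tested probe sets 810 held values identical to another's on all 12 arrays.

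Probe sets under the 25th percentile of the mean over 12 arrays (2.998) were left out, and 20668 were tested. Each gene was read by its tested probe set with the highest mean. Group means were fitted to all 12 arrays with limma 3.58.1 in R 4.3.3, two-sided, without a block, and the calls were made at an adjusted p (Benjamini-Hochberg) under 0.05. Deviations of same-numbered septum and free wall arrays correlated at 0.32, 0.25 and 0.24 in sham pigs, so these numbers were taken as pairs and a blocked fit of the 6 sham arrays is given as well. In paced pigs they correlated at 0.09, -0.17 and -0.18, while septum array 1 with free wall array 3, 2 with 1 and 3 with 2 correlated at 0.41, 0.42 and 0.48, so paced numbers were not taken as pairs. That pairing comes from the data, since the labels say only that matched tissues were taken.

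The members, the naming rule and the 40 gene lists (24 of pathways, 16 of cell types, with 513 of 832 genes tested) were chosen with earlier results of these data known, and no list was tested. Genes were named at an unadjusted p under 0.01 with groups apart, up to 12 per direction, without uncharacterised loci. Groups apart put all 3 pairs in 1 direction, so the pairs were no further condition. A fixed set and up to 4 members per list with the smallest p were named besides. The code was tested on simulated data. Figures were drawn with matplotlib 3.10.9 in Python 3.11.15. The number of arrays limits the precision. The alternatives were other filters, scalings, weights, priors, blocks and sets of arrays, and 1 probe set per gene.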

Additional observations from a re-analysis of the deposited data

Results flagged for a closer look

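Among the genes described above, 2 had sham and paced regions apart in opposite directions. Over all 10007 genes 17 did. For CCKBR, the receptor of cholecystokinin, every sham septum array was above every sham free wall array (difference 0.29), and every paced septum array was below every paced free wall array (difference -0.34). The sham minus the paced difference was 0.63, with an unadjusted p of 0.00825 and a limma adjusted p of 0.999. For MSR1, a macrophage scavenger receptor, sham septum lay below sham free wall (-0.48, or -0.30 without septum array 3) and paced septum above paced free wall (0.26), and the sham minus the paced difference was -0.74, with an unadjusted p of 0.00648 and a limma adjusted p of 0.999. Neither passed the adjusted threshold. Both were picked for opposite gaps in these same values, so a small unadjusted p follows from the choice. Of the genes that met the naming rule beyond the 12 named, ONECUT1 and CCDC159 had the same pattern, and both are given after their values were seen. ONECUT1 differed by 0.41 in sham and by -0.17 in paced pigs, with an unadjusted p of 0.00677 for the difference. CCDC159 differed by 0.30 in sham and by -0.22 in paced pigs, with an unadjusted p of 0.00276, and the limma adjusted p was 0.999 for both.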

How the results depend on the processing

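The comparison of the sham regions called 0 probe sets in each of 25 fits, and the difference between the sham and the paced regional effect called 0 in each of 23. The count of probe sets at an unadjusted p under 0.05, 758 between the sham regions, became 352 with 1 probe set per gene, 1684 with array weights, 1473 from the 6 sham arrays alone and 2099 with the array number as a replicate block on these 6. Leaving out 1 array at a time gave 505 (without sham septum array 3) to 1208 (without paced free wall array 2). Leaving out both sham arrays numbered 1, an alternative added after the data were seen, gave 600. With the number within each treatment as a replicate block over 12 arrays the count was 776, and 0 were called with a smallest adjusted p of 0.988 in limma. This block also pairs the paced arrays by number, which their deviations did not bear out. The blocked fits changed no call. For the difference between sham and paced, 569 became 275 with 1 probe set per gene, 321 with a filter at the 50th percentile and 892 with no filter, and 390 (without paced septum array 1) to 1005 (without paced septum array 3) when 1 array was left out. With array weights it was 833, and without paced free wall array 1 it was 904.

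For single genes and list medians 5255 repeats neither turned nor moved beyond their spread, 20 moved further and 3 turned round. A direction was counted only beyond 1 SE from 0. Many repeats could not move, since leaving out a paced array or changing the filter or block keeps a gene's sham difference. Leaving out a sham array could move it. NPPA went from -0.60 without sham free wall array 2 to 1.30 without sham free wall array 3. COL3A1 ranged from -0.60 without sham free wall array 1 to 0.49 without sham septum array 1. Both sham arrays numbered 1 were low for COL3A1, and without the 2 of them its difference was -0.065. By pair it differed by -0.01, 0.13 and -0.26. CILP stood at 0.22 and its further probe set at -0.53. CXCL2 stood at 0.21, and its further probe sets at 0.21, 0.08 and -0.063. Animals behind the arrays are unknown, and dim signals have no detection call here.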

Other observations

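Clock genes were split 7 above and 8 below 0, with CRY2, a repressor of the clock, at 0.38 (SE 0.14) and RORA, a nuclear receptor that drives it, at -0.31 (SE 0.16), each without overlap in sham pigs. CRY2 read 6.24, 6.47 and 6.56 in septum arrays 1, 2 and 3, against 5.89, 6.21 and 6.02 in free wall arrays 1, 2 and 3. RORA read 7.53, 7.68 and 7.27 in septum and 7.78, 7.92 and 7.70 in free wall. Neither passed in limma (adjusted p 0.997), and in paced pigs CRY2 stood at 0.03 and RORA at -0.24.

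Chemokine and cytokine genes lay below 0 in 13 of 20 cases with a median of -0.07. CSF3, the granulocyte growth factor, was the 1 member of the list apart by region, at 0.48 (SE 0.17) in sham and -0.27 in paced pigs. It read 5.06, 4.85 and 5.07 in septum and 4.71, 4.28 and 4.55 in free wall. CXCL11, described above with septum below free wall, was not on this list. HDC, which makes histamine in mast cells, read 4.07, 3.91 and 4.18 in septum and 3.63, 3.69 and 3.75 in free wall, at 0.36 (SE 0.13), with -0.18 in paced pigs, while its other probe set stood at 0.11. Of the 5 neutrophil and mast cell markers tested 4 lay below 0.

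ADAMTS15, a secreted metalloprotease, stood at 0.36 (SE 0.19) in sham and -0.57 in paced pigs. Axon guidance genes were split 12 above and 13 below 0. Ribosomal protein genes lay above 0 in 12 of 16 cases with a median of 0.05. With each array centred on its median 10 of them lay above 0, beside 4326 of all 10007 genes. Cell cycle genes lay below 0 in 6 of 9 cases with a median of -0.05, and AURKA, a mitotic kinase, stood at -0.30 (SE 0.16).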
